A study of Arabidopsis thaliana with 12 samples.

Results

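The 51 nuclear genes described here encode the light-harvesting proteins, the nuclear subunits of photosystems I and II, plastocyanin, the Rieske iron-sulfur protein, the Rubisco small subunits and Rubisco activase, together with PSBS, CAS and LQY1. They were taken from a fixed list of gene identifiers, and all 51 were present among the 37336 genes counted in each library. Polyadenylated RNA was sequenced from leaves and roots of *Arabidopsis thaliana* *pi4kß1ß2* and wild-type (WT) seedlings, 3 libraries per organ and genotype and 12 in all. The seedlings were untreated, 7 days old, and grown on half-strength MS medium with sucrose in long days. *pi4kß1ß2* is a single line carrying T-DNA insertions in both type III phosphatidylinositol 4-kinase ß genes, PI4Kß1 and PI4Kß2. Each root library came from a pool of plants, and the study compared the 2 genotypes to describe the transcriptome of the mutant. These are bulk libraries, so fewer green cells and less RNA per cell cannot be told apart.

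Light-harvesting chlorophyll proteins (LHCB around photosystem II, LHCA around photosystem I) pass energy to the reaction centres. Electrons taken from water at photosystem II travel through the cytochrome complex and plastocyanin to photosystem I, and Rubisco then fixes CO2. Most of the protein subunits are encoded in the nucleus and are transcribed in green tissue, in the light and with a daily rhythm. Roots grown in light also form some chloroplasts, and nuclear factors such as GLK2 promote this.

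The targeted kinases were examined first. In *pi4kß1ß2* roots PI4Kß1 had 46.5 to 49.2 normalized CPM (counts scaled to the library total and divided by the TMM factor of edgeR, which was 1.18 to 1.23 in roots and 0.768 to 0.865 in leaves) and PI4Kß2 6.75 to 7.36 CPM, against 71.0 to 78.9 and 14.0 to 16.2 CPM in WT roots. Counts over these genes were thus lower in the mutant line but not absent. MRD1, a gene outside photosynthesis, separated the root genotypes more widely, at 0.339 to 1.42 CPM in *pi4kß1ß2* roots against 42.6 to 46.4 CPM in WT roots. The study lists MRD1 among the most repressed genes of these root libraries, so its separation in roots was known beforehand. In leaves 2 libraries went against their labels. MRD1 had 46.6, 1.09 and 1.23 CPM in leaves labelled *pi4kß1ß2* (replicates 1 to 3) against 44.1, 0.844 and 45.8 CPM in leaves labelled WT, and PI4Kß2 had 11, 6.4 and 6.84 CPM against 11.8, 4.64 and 12.0 CPM. The library labelled *pi4kß1ß2* leaf 1 and the library labelled WT leaf 2 are therefore named by label throughout, and the leaf calls are given with and without these 2 libraries. The counted reads were 38116716 to 46577151 per library. The 12 leaf markers summed to 1337 to 2187 CPM in leaves and to 0.573 to 9.90 CPM in roots. The 10 root markers summed to 383 to 487 CPM in roots and were present in leaves too, unevenly, at 61.6, 111 and 109 CPM in leaves labelled *pi4kß1ß2* against 77.0, 149 and 89.7 CPM in leaves labelled WT. The part of this difference in the leaf results was not tested.

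The 51 genes took 17.5%, 17.4% and 18.6% of all gene counts in leaves labelled *pi4kß1ß2*, against 16.7%, 15.4% and 15.8% in leaves labelled WT (ratio of the means 1.1, with and without the 2 libraries that went against their labels). In roots they took 0.0711%, 0.121% and 0.0833% in *pi4kß1ß2*, against 0.134%, 0.191% and 0.124% in WT. The root means were 0.0918% ± 0.0260 in *pi4kß1ß2* and 0.150% ± 0.0360 in WT (SD, n = 3 each), a ratio of 0.614. The lowest WT root library lay only just above the highest *pi4kß1ß2* root library. With counts of both strands these 2 libraries changed order, at 0.1065% in WT root 3 and 0.109% in *pi4kß1ß2* root 2, so the genotypes overlapped. Leaving out 1 root library at a time put the ratio between 0.516 and 0.712.

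All 51 genes had higher transcript levels in leaves than in roots, where 42.1% of the 20169 genes tested were higher in leaves, 42.3% lower, and 84.4% called in either direction. The quasi-likelihood test of edgeR was used, with p-values adjusted over all genes tested by Benjamini-Hochberg, and a gene was called at an adjusted p under 0.05. The median fold was 213 and 48 of the 51 folds were 100 or more. LHCA6 and PETE1 were below the minimum level in roots and passed the filter through their leaf libraries. The direction of these calls was therefore set by the filter. On the common scale of both organs the median log2 difference over all genes was 0.00 and that over the members 7.73. Scaling by library size alone moved the median of all genes to -0.52 and that of the members to 7.21, and all 51 stayed higher in leaves. Without the 2 leaf libraries that went against their labels 50 members were tested and all 50 were higher.

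The 3 largest folds belonged to chlorophyll a/b proteins of the main photosystem II antenna. LHCB1.1 (AT1G29920) had 6904, 6529 and 6419 CPM in leaves labelled *pi4kß1ß2* and 3031, 4119 and 2508 CPM in leaves labelled WT, against 4.31, 11.9 and 8.07 CPM in *pi4kß1ß2* roots and 4.3, 10.8 and 0.751 CPM in WT roots (698-fold, log2 9.45 ± 0.64 SE, adjusted p = 1.82e-07 by edgeR). The level is high in all 6 leaf libraries and near 0 in 1 root library. LHCB1.2 (AT1G29910), with 7659, 8428 and 9081 CPM in leaves labelled *pi4kß1ß2* and 5855, 6620 and 5340 CPM in leaves labelled WT, was 671-fold higher in leaves. LHCB1.4 (AT2G34430), with 2626, 2820 and 3417 CPM in leaves labelled *pi4kß1ß2* and 3392, 2684 and 2990 CPM in leaves labelled WT, was 650-fold higher. The smallest fold was that of LHCB7 (AT1G76570), a weakly expressed relative of the antenna proteins. LHCB7 had 18.7, 16.6 and 17.6 CPM in leaves labelled *pi4kß1ß2* and 19.4, 15.5 and 16.8 CPM in leaves labelled WT, against 1.79, 1.56 and 1.61 CPM in *pi4kß1ß2* roots and 2.48, 2.56 and 2.19 CPM in WT roots (8.64-fold, adjusted p = 5.18e-11 by edgeR). LHCB4.3 (AT2G40100), the minor isoform of the CP29 antenna protein, was 30.1-fold higher in leaves, with 79.9, 56.2 and 57.8 CPM in leaves labelled *pi4kß1ß2* and 46.7, 39.6 and 56.6 CPM in leaves labelled WT, and CAS (AT5G23060), the thylakoid calcium-sensing receptor, was 77.2-fold higher. The 3 genes with the largest folds were nearly absent from the library WT root 3, and the 3 with the smallest folds were not.

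By function, the leaf over root folds were 106 to 637 for the 6 LHCA genes, 131 to 405 for the 10 photosystem I subunits, 104 to 234 for the 9 photosystem II subunits, 144 to 324 for the 3 electron carriers and 196 to 641 for the 5 Rubisco and activase genes. The upper ends of 637 and 324 belong to LHCA6 and PETE1, both below the minimum level in roots. LHCA6 had only 0 to 15 counts per root library. Per kilobase of transcript, LHCB1.3 (AT1G29930) had the highest level in leaves, 13650 CPM per kb in leaves labelled *pi4kß1ß2* and 15177 CPM per kb in leaves labelled WT. LHCB1.5 (AT2G34420) had the highest in roots, 79.7 CPM per kb in *pi4kß1ß2* and 137 CPM per kb in WT. LHCB1.4 and LHCB1.5 are neighbours on chromosome 2 (14524607 to 14525918, + strand, and 14522524 to 14523568, - strand, TAIR10.1 annotation of RefSeq), each a single exon. In the library WT root 3, LHCB1.5 stood at 1.4% of its mean leaf level and LHCB1.4 at 0.00198%.

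Copies limit what can be said of single genes. Reads matching several places had been removed, and 11 of the 51 genes (LHCB1.1 to LHCB1.5, LHCB2.1, LHCB2.2, LHCA2, RBCS1B, RBCS2B and RBCS3B) share 3.07% to 19.1% of their 75-base windows exactly with another gene. RBCS1A and LHCB2.3 share none. The members lie on all 5 chromosomes, 22 of them on chromosome 1, with transcripts of 702 to 1988 bases.

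In *pi4kß1ß2* roots 18 of the 49 members tested had lower transcript levels than in WT roots and 0 had higher levels, where 15.2% of the 19694 genes tested were lower and 11.3% higher. The log2 fold change was below 0 for 41 of the 49, and its median was -0.70, with 0.01 over all genes tested. At an unadjusted p under 0.05, 26 of the 49 passed. DESeq2 called 25 lower and 0 higher, and the likelihood ratio test, which the study used, called 29 lower and 0 higher. The shares of 15.2% and 11.3% belong to the quasi-likelihood calls at the adjusted threshold. Those for the unadjusted p, DESeq2 and the likelihood ratio test are not given here. PSBS, CAS and LQY1 were picked by the study from the genes that fell in these root libraries, so their direction was known beforehand. The study measured these genes by qPCR in roots of older seedlings and reports that qPCR bore out the sequencing. Without PSBS, CAS and LQY1, 15 of 46 members were lower and the median was -0.68. The fold changes are drawn by function in the plot of root fold changes.

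**Figure D1:**
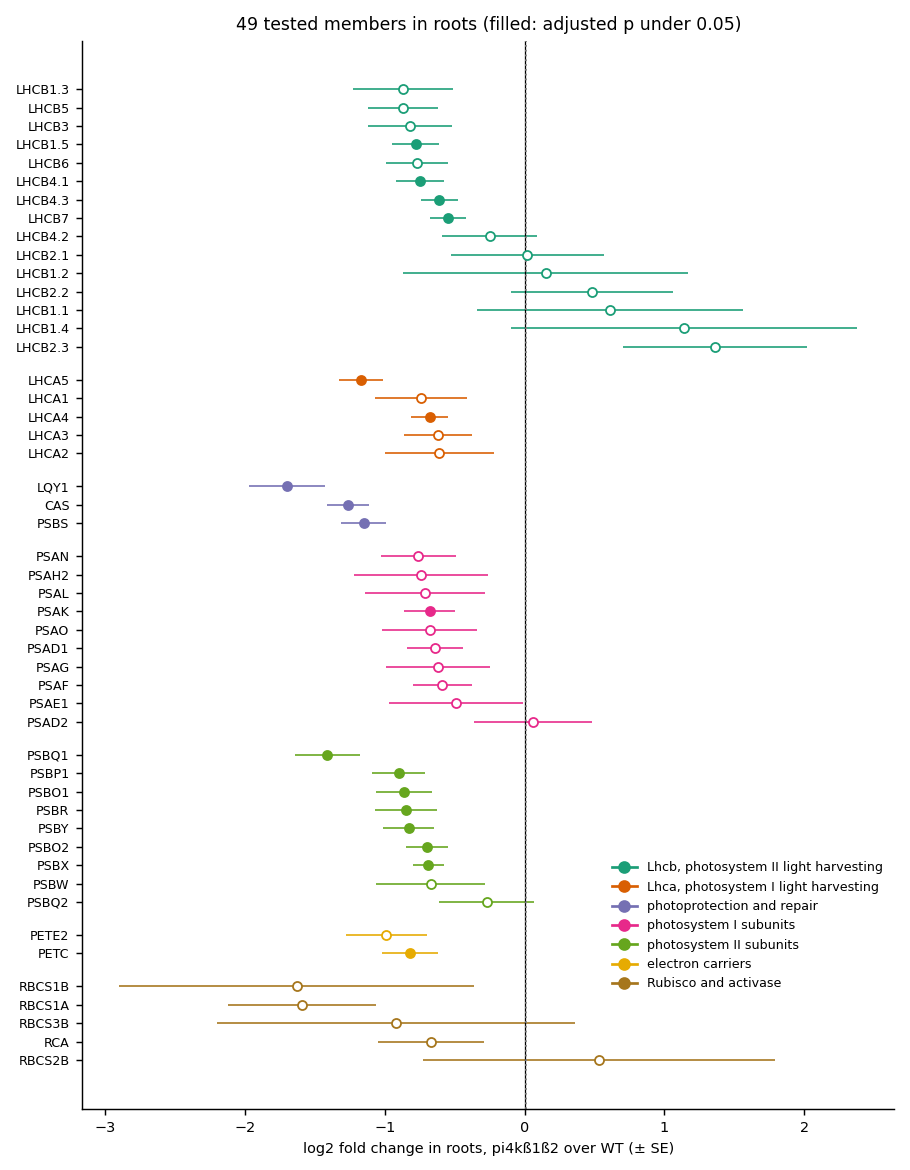
Log2 fold change in roots, *pi4kß1ß2* over WT, with its standard error, for the 49 members tested, grouped and coloured by function. Filled points passed an adjusted p of 0.05, the solid line marks 0 and the dotted line the median of all genes tested (0.01). Of the 9 photosystem II subunits 7 are filled, and the widest errors belong to LHCB1 and RBCS copies.

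The root values of PSBS, CAS and LQY1 are given as a description, with no test, for the reason above. PSBS (AT1G44575), the photosystem II protein required for the fast dissipation of excess light energy as heat, had 3.66, 5.09 and 5.32 CPM in *pi4kß1ß2* roots against 9.35, 12.2 and 9.58 CPM in WT roots. The groups did not overlap, and the log2 fold change was -1.15 ± 0.16 (SE). CAS had 2.59, 3.05 and 3.12 CPM in *pi4kß1ß2* roots against 7.40, 7.92 and 5.63 CPM in WT roots (log2 -1.26 ± 0.15). LQY1 (AT1G75690), a thylakoid zinc-finger protein of photosystem II repair, had 0.663, 0.858 and 0.428 CPM in *pi4kß1ß2* roots against 2.03, 2.53 and 1.76 CPM in WT roots. Every *pi4kß1ß2* root library was below every WT root library for CAS and for LQY1. LQY1 changed by a log2 of -1.70 ± 0.27, the lowest value among the 49. PSBS and CAS lie on chromosome 1 (16870221 to 16873427, + strand) and chromosome 5 (7736518 to 7738535, - strand) of TAIR10.1.

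Of the 9 nuclear photosystem II subunits, 7 fell. They were the oxygen-evolving complex proteins PSBO1 (log2 -0.86), PSBO2 (-0.70), PSBP1 (-0.90) and PSBQ1 (-1.41), which stabilize the water-splitting site, and the small subunits PSBR (-0.85), PSBX (-0.69) and PSBY (-0.83). PSBW (-0.67, adjusted p = 0.282 by edgeR) and PSBQ2 (-0.27, adjusted p = 0.617 by edgeR) did not pass. PSBQ1 and PSBQ2 encode isoforms of the same subunit and gave different root values. PSBQ1 (AT4G21280) had 3.20, 5.69 and 5.23 CPM in *pi4kß1ß2* roots against 12.7, 14.2 and 10.5 CPM in WT roots. PSBQ2 (AT4G05180) had 9.04, 15.6 and 9.71 CPM in *pi4kß1ß2* roots against 12.5, 19.1 and 9.98 CPM in WT roots. PSBQ1 was clear of overlap between the genotypes, and PSBQ2 overlapped. The difference between these paralogues was not tested.

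The regions upstream of both PSBQ genes are shown because these paralogues gave different values in roots, that of LHCA4 because LHCA4 was called in roots and in leaves, and that of RBCS2B because it holds 3 I-boxes beside a G-box. They are the 250 bases before the annotated start of each gene (RefSeq, TAIR10.1), written on the strand of the gene. Capitals mark CACGTG (G-box), GATAAG (I-box), GGTTAA (GT1) and AAAAATCT (CCA1 site), on either strand. The region of PSBQ1 overlaps the neighbouring gene AT4G21270. Of the members called in both organs but not shown, CAS holds 1 GT1, and PSBS and PSBO2 hold none of the motifs searched.
PSBQ1, chr4:11334102-11334351, + strand: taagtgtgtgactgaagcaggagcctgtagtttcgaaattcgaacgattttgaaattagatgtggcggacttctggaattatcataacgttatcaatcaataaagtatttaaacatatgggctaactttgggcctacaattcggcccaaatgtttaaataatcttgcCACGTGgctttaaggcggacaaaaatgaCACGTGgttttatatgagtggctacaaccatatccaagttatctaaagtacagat
PSBQ2, chr4:2673244-2673493, - strand: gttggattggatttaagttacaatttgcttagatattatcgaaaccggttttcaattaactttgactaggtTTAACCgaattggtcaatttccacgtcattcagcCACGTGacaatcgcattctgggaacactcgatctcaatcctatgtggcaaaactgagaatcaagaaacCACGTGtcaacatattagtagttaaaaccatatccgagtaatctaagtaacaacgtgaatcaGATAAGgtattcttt
LHCA4, chr3:17495034-17495283, - strand: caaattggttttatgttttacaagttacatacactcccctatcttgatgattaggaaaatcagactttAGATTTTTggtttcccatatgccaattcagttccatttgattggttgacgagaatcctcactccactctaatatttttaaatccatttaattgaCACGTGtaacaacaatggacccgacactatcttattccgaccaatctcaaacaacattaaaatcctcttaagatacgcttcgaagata
RBCS2B, chr5:15382072-15382321, - strand: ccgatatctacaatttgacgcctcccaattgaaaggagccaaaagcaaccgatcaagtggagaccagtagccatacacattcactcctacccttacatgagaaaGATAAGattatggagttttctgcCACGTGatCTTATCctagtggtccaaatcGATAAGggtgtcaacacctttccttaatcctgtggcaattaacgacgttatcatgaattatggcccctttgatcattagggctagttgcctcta

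Both PSBQ regions hold 2 G-boxes. The part of the motifs in the root values was not tested. No motif contains another. Among the 51 members, 9 (17.6%) hold a G-box in these 250 bases, as do 6.49% of all 27443 such regions of nuclear protein-coding genes. The I-box was in 14 members (27.5%) and 12.3% of all regions. GT1 was in 8 members (15.7%, all regions 14.6%), the CCA1 site in 5 (9.80%, all regions 6.69%) and the evening element AAAATATCT in 1 (1.96%, all regions 2.36%). Of the holders tested in roots, those lower in *pi4kß1ß2* were 4 of 9 for the G-box, 3 of 14 for the I-box, 2 of 8 for GT1, 1 of 5 for the CCA1 site and 1 of 1 for the evening element, beside 8 of the 19 members with no motif and 18 of all 49. Higher in leaves labelled *pi4kß1ß2* were 5 of 9, 4 of 14, 1 of 8, 2 of 5 and 0 of 1 in the same order, beside 6 of the 21 members with no motif and 14 of all 51.

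In the photosystem II antenna 4 of 15 LHCB genes fell in *pi4kß1ß2* roots, namely LHCB1.5 (log2 -0.78), the CP29 isoforms LHCB4.1 (-0.75) and LHCB4.3 (-0.61), and LHCB7 (-0.55). The other 11 did not pass, and 6 of them had values above 0. The lowest and highest values were those of LHCB1.3 and LHCB2.3. LHCB1.3 had 33.7, 64.2 and 36.7 CPM in *pi4kß1ß2* roots against 62.3, 108 and 77.1 CPM in WT roots (log2 -0.87 ± 0.36, adjusted p = 0.157 by edgeR). LHCB2.3 (AT3G27690) had 1.79, 7.92 and 5.46 CPM in *pi4kß1ß2* roots against 1.78, 2.97 and 1.15 CPM in WT roots (log2 1.36 ± 0.66, adjusted p = 0.205 by edgeR). For LHCB1.3 the replicate numbered 2 was highest in each genotype, and the 2 ranges crossed there. LHCB4.3 had 1.52, 1.36 and 1.55 CPM in *pi4kß1ß2* roots against 2.42, 2.1 and 2.25 CPM in WT roots (adjusted p = 0.0125 by edgeR), with no overlap and a narrow spread. LHCB1.1, LHCB1.2 and LHCB1.4 overlapped between the genotypes, and none of them passed. LHCB1.2 had 7.31, 15.6 and 9.91 CPM in *pi4kß1ß2* roots against 7.79, 20.9 and 0.988 CPM in WT roots. LHCB1.4 had 3.41, 12.8 and 4.00 CPM in *pi4kß1ß2* roots against 2.33, 6.76 and 0.0593 CPM in WT roots.

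In the photosystem I antenna LHCA4 (AT3G47470) and LHCA5 (AT1G45474) fell. LHCA5, a low-abundance antenna protein that links photosystem I to the NADH dehydrogenase-like complex, had 0.877, 1.14 and 1.21 CPM in *pi4kß1ß2* roots against 2.59, 2.35 and 2.35 CPM in WT roots (log2 -1.17 ± 0.16, adjusted p = 0.00147 by edgeR). LHCA4, an abundant antenna protein, had 48.7, 64.7 and 53.5 CPM in *pi4kß1ß2* roots against 84.6, 99.4 and 83.4 CPM in WT roots (log2 -0.68 ± 0.13, adjusted p = 0.0110 by edgeR). Neither gene overlapped between the genotypes. LHCA2 (AT3G61470) had 10.7, 21.9 and 12.4 CPM in *pi4kß1ß2* roots against 20.2, 31.1 and 17.4 CPM in WT roots, and its log2 fold change of -0.61 ± 0.39 was the highest of the 5 LHCA genes tested and did not pass. LHCA6 (AT1G19150) was not tested, since fewer than 3 of the 6 root libraries reached 1 CPM. It had 0.0195, 0.120 and 0.125 CPM in *pi4kß1ß2* roots against 0.193, 0.291 and 0 CPM in WT roots.

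Among the photosystem I subunits only PSAK (log2 -0.68, adjusted p = 0.0372 by edgeR) fell, while 9 of the 10 had values below 0. The lowest was PSAN (AT5G64040), a subunit on the lumen side where plastocyanin docks, with 7.27, 12.2 and 9.12 CPM in *pi4kß1ß2* roots against 14.8, 20.9 and 12.6 CPM in WT roots (log2 -0.76 ± 0.27, adjusted p = 0.100 by edgeR). The highest was PSAD2 (AT1G03130), a stromal ferredoxin-docking subunit, with 2.61, 5.83 and 3.34 CPM in *pi4kß1ß2* roots against 2.95, 5.57 and 2.79 CPM in WT roots (log2 0.06 ± 0.42). PSAN did not overlap between the genotypes yet missed the threshold, and PSAD2 overlapped.

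Of the electron carriers PETC (AT4G03280), the Rieske protein of the cytochrome complex, fell. PETC had 7.29, 10.1 and 7.51 CPM in *pi4kß1ß2* roots against 13.2, 18.5 and 12.4 CPM in WT roots (log2 -0.82 ± 0.20, adjusted p = 0.0310 by edgeR). PETE2 (AT1G20340), the main plastocyanin, had 10.5, 17.3 and 13.0 CPM in *pi4kß1ß2* roots against 26.5, 34.7 and 19.8 CPM in WT roots (log2 -0.99 ± 0.29, adjusted p = 0.0632 by edgeR). Neither overlapped, and PETE2 had the wider spread. PETE1 (AT1G76100), the minor plastocyanin, was below the minimum level for testing, with 0.565, 0.638 and 0.518 CPM in *pi4kß1ß2* roots against 0.813, 1.07 and 0.711 CPM in WT roots.

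None of the 5 Rubisco and activase genes passed in roots. RBCS1A (AT1G67090), the main Rubisco small subunit gene, had 16.5, 33.1 and 22.0 CPM in *pi4kß1ß2* roots against 64.3, 114 and 37.3 CPM in WT roots. The groups did not overlap, but the range of the WT libraries was wider than the difference of the means, and the log2 fold change was -1.59 ± 0.53 (adjusted p = 0.0991 by edgeR). RBCS1B (AT5G38430) had 0.487, 0.938 and 0.464 CPM in *pi4kß1ß2* roots against 1.63, 4.2 and 0.0198 CPM in WT roots (log2 -1.63 ± 1.27). RBCS2B (AT5G38420) had 2.71, 11.9 and 4.87 CPM in *pi4kß1ß2* roots against 3.64, 9.83 and 0.0988 CPM in WT roots (log2 0.53 ± 1.26). Both overlapped, with WT root 3 far below all other root libraries. RBCS3B (-0.92 ± 1.28) and RCA, which encodes Rubisco activase (-0.67 ± 0.38), did not pass either. The values by library are drawn in the plot of root levels.

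**Figure D2:**
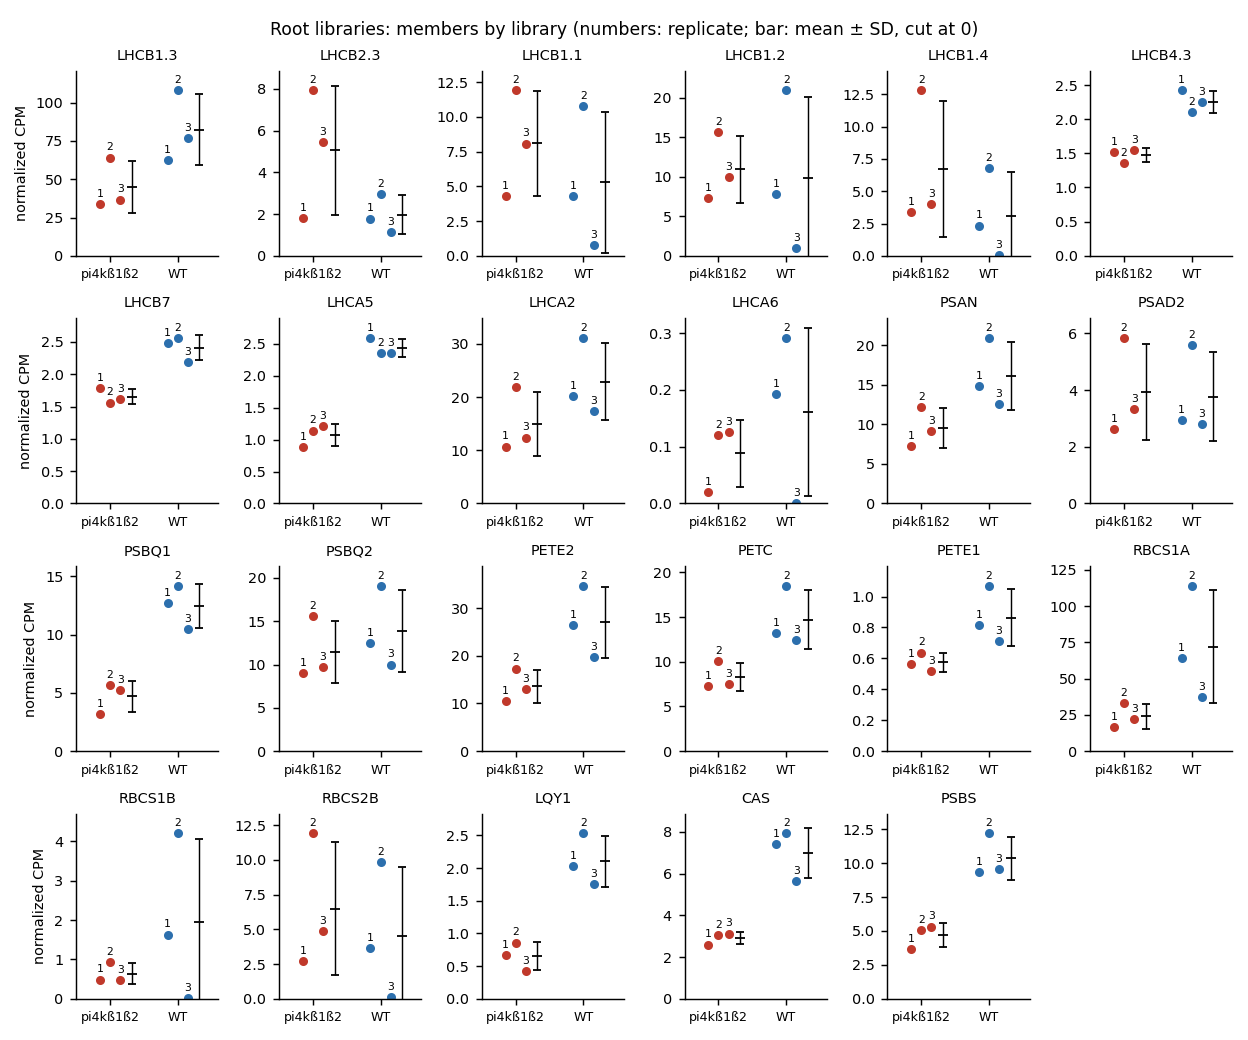
Normalized CPM (linear axes from 0) of 23 members in the 3 *pi4kß1ß2* (red) and 3 WT (blue) root libraries, with replicate numbers and the mean ± SD, cut at 0. PSBS, CAS, LQY1, PSBQ1, LHCA5, LHCB4.3 and LHCB7 do not overlap between the genotypes, and LHCB1.1, LHCB1.2, LHCB1.4, RBCS1B and RBCS2B are near 0 in WT root 3.

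The root call depended on single libraries for the count but not for 8 genes. Leaving out 1 library at a time left 8 to 23 members lower and 0 higher. The count fell to 8 without *pi4kß1ß2* root 3, to 11 without *pi4kß1ß2* root 1, to 9 without WT root 2 and to 10 without WT root 1. CAS, LHCA4, LHCA5, LHCB4.3, LQY1, PSBQ1, PSBS and PSBX were lower in all 6 of these fits. Of these 8, CAS, LQY1 and PSBS were picked by the study from these libraries, so their direction was known beforehand. Without both root libraries numbered 2, an alternative chosen after the data were seen, 27 were lower.

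Root libraries can hold some shoot RNA, so 12 leaf and stomatal markers outside photosynthesis were followed beside the members. Their summed level was 0.213%, 0.579% and 0.255% of the mean leaf level in *pi4kß1ß2* roots against 0.153%, 0.309% and 0.0335% in WT roots. The median member stood at 0.259%, 0.497% and 0.326% of its leaf level in *pi4kß1ß2* roots against 0.552%, 0.771% and 0.468% in WT roots. The median marker stood at 0.194%, 0.333% and 0.244% in *pi4kß1ß2* roots against 0.213%, 0.407% and 0% in WT roots. The summed markers overlapped between the genotypes and were highest in *pi4kß1ß2* root 2, whereas the member median was lower in *pi4kß1ß2* roots 1 and 3 than in any WT root library. Of the 12 markers, 3, 2 and 0 had no count in the *pi4kß1ß2* root libraries and 3, 1 and 8 in the WT root libraries. MUTE, a gene of the stomatal lineage, had no count in 5 of the 6 root libraries. TGG1, a myrosinase of guard and myrosin cells, had the most counts of the 12 in 5 of the 6, with 94, 401 and 130 in *pi4kß1ß2* roots against 59, 151 and 8 in WT roots.

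The library WT root 3, which had the least of these markers, split the members. There 7 members (LHCB1.1, LHCB1.2, LHCB1.4, LHCA6, RBCS1B, RBCS2B and RBCS3B) were at or under the 0.0335% of the markers. The other 44 stood at 0.0745% to 12.6% of their leaf levels. In *pi4kß1ß2* roots 18, 35 and 17 members were at or under the percentage of the markers, against 5, 5 and 7 in WT roots. The replicate numbered 2 had the most marker counts and the highest member share in each genotype. The part of shoot RNA in the differences between the genotypes was not tested beyond these values.

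**Figure D3:**
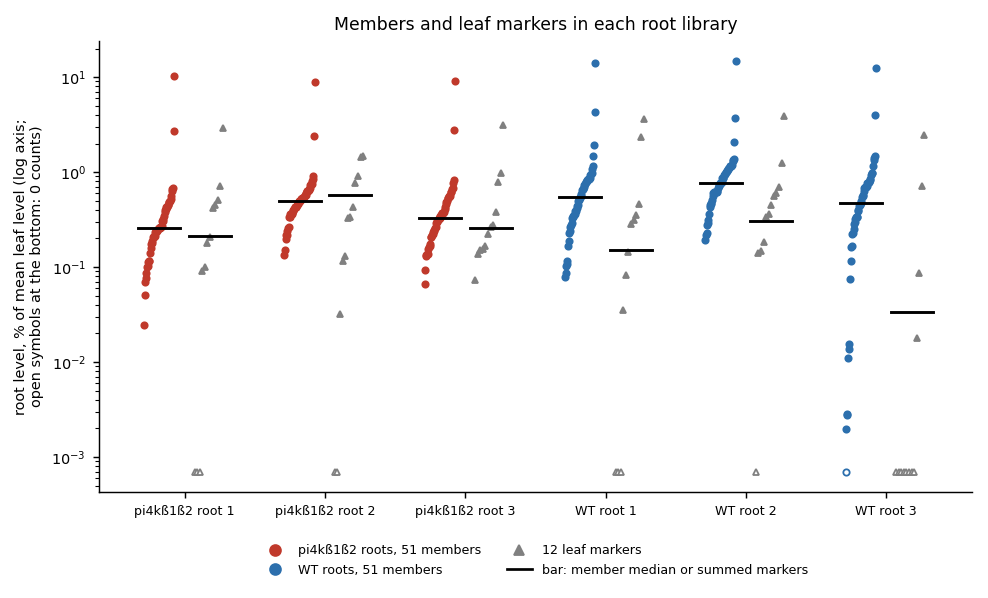
Root level as a percentage of the mean level over the 6 leaf libraries (log axis) for the 51 members (circles, red in *pi4kß1ß2*, blue in WT) and 12 leaf markers (grey triangles) in each root library. Horizontal bars mark the member median and the summed markers, and open symbols at the bottom had no counts. The member median lies above the marker bar in all 3 WT root libraries and below it in *pi4kß1ß2* root 2.

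The members varied more between root replicates than other genes did. Their median coefficient of variation was 31.5% in *pi4kß1ß2* roots and 23.3% in WT roots, where that of all genes tested was 5.21% and 6.18%. In leaves it was 7.90% under the label *pi4kß1ß2* and 8.08% under the label WT, where that of all genes was 9.59% and 9.46%.

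Other genes of the chloroplast were counted from lists on the same scale. Their counts stand beside the 15.2% of all genes tested that were lower in *pi4kß1ß2* roots and the 11.3% that were higher. Of 21 chlorophyll synthesis genes tested in roots 16 fell and 0 rose. PORB (AT4G27440), a light-dependent protochlorophyllide oxidoreductase, had 5.85, 5.71 and 4.89 CPM in *pi4kß1ß2* roots against 23.6, 24.8 and 20.5 CPM in WT roots (log2 -2.07 ± 0.10, adjusted p = 2.24e-05 by edgeR). PORC, which carries out the same step, had 0.468, 0.698 and 0.5 CPM in *pi4kß1ß2* roots against 2.18, 2.29 and 1.56 CPM in WT roots (log2 -1.86 ± 0.24). PORC reached the minimum level of 1 CPM only in the WT root libraries. The direction of its call, counted among the 16, was therefore set by the filter. The log2 fold change of PORB was lower than that of any member tested, and the genotypes did not overlap. Of 11 further thylakoid genes 8 fell, among them PETM (log2 -1.14), a small cytochrome complex subunit, and PSAE2 (-0.82), a stromal subunit of photosystem I. Of 15 Calvin cycle genes 5 fell, led by CP12-1 (-0.93) and GAPA (-0.85), and of 12 photorespiration genes 5 fell, led by the glycine decarboxylase H proteins GLDH3 (-1.39) and GLDH1 (-0.95). Of 8 regulators tested 4 fell, led by GLK2 (log2 -0.70 ± 0.11, adjusted p = 0.00344 by edgeR), a transcription factor that activates photosynthesis and chlorophyll genes, and by the plastid sigma factor SIG6 (-0.56). GLK2 had 7.66, 5.91 and 6.23 CPM in *pi4kß1ß2* roots against 9.78, 11.8 and 10.5 CPM in WT roots. None of these lists had a gene that rose in *pi4kß1ß2* roots.

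In leaves 14 of the 51 members were higher under the label *pi4kß1ß2* than under the label WT and 0 were lower, where 3.72% of the 19470 genes tested were higher and 6.76% lower. The median log2 fold change was 0.26, with 0.00 over all genes tested, and 28 members passed an unadjusted p of 0.05. With the replicate number as a block 18 were higher and 1 lower, and DESeq2 called 24 higher and 1 lower. The shares of 3.72% and 6.76% belong to the quasi-likelihood calls at the adjusted threshold. Those for the unadjusted p, the block and DESeq2 are not given here. The 14 were the antenna genes LHCB1.1, LHCB2.2, LHCB2.3, LHCB3, LHCB6, LHCA1 and LHCA4, together with PSBS, CAS, PSAD2, PSAH2, PSBO2, PETE1 and RBCS2B.

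CAS had 604, 488 and 481 CPM in leaves labelled *pi4kß1ß2* against 251, 228 and 233 CPM in leaves labelled WT (log2 1.1 ± 0.11, adjusted p = 0.00984 by edgeR). PSBS had 1991, 1593 and 1663 CPM in leaves labelled *pi4kß1ß2* against 1151, 991 and 1086 CPM in leaves labelled WT (log2 0.66 ± 0.11, adjusted p = 0.0231 by edgeR). Neither gene overlapped between the labels, although both sets hold a library whose MRD1 level goes against its label. LHCB2.3 had 2135, 2102 and 2483 CPM in leaves labelled *pi4kß1ß2* against 740, 1162 and 609 CPM in leaves labelled WT (log2 1.37 ± 0.25, adjusted p = 0.0274 by edgeR), the largest leaf value among the members. LQY1 had 330, 269 and 278 CPM in leaves labelled *pi4kß1ß2* against 235, 196 and 217 CPM in leaves labelled WT and missed the threshold (log2 0.39 ± 0.11, adjusted p = 0.0723 by edgeR). RBCS1A had 17883, 15517 and 17023 CPM in leaves labelled *pi4kß1ß2* against 17224, 14490 and 17652 CPM in leaves labelled WT, and these overlapped (log2 -0.01 ± 0.10). LHCA2, with 4581, 4184 and 4786 CPM in leaves labelled *pi4kß1ß2* against 6467, 5226 and 5667 CPM in leaves labelled WT, was the member with the lowest value (log2 -0.40 ± 0.10, adjusted p = 0.0563 by edgeR). Without the 2 libraries that went against their labels CAS (log2 0.96), PSBS (0.50) and LHCB2.3 (1.72) passed again. LQY1 (0.23, adjusted p = 0.0465 by edgeR) and LHCA2 (-0.48, adjusted p = 0.0148 by edgeR) then passed as well, and RBCS1A (-0.14) did not.

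The leaf call rested on few libraries. Without the library labelled WT leaf 1, WT leaf 3 or *pi4kß1ß2* leaf 2 no member was called higher, and over all genes 18, 20 and 4 were. The count was 9 without *pi4kß1ß2* leaf 1, 4 without *pi4kß1ß2* leaf 3 and 15 without WT leaf 2. Without both libraries that went against their labels it was 20 higher and 2 lower, where 13.7% of the 19517 genes tested were higher and 14.4% lower. Clock genes moved with the labels too: of 11, 1 was higher and 6 were lower under the label *pi4kß1ß2*, and without those libraries 1 was higher and 7 were lower. LHY, a morning gene of the clock, had 17.5, 11 and 8.66 CPM in leaves labelled *pi4kß1ß2* against 1.26, 1.86 and 2.14 CPM in leaves labelled WT. ELF4, an evening gene, had 1.81, 3.31 and 3.97 CPM against 18.5, 24.9 and 19.3 CPM. In roots 0 of the 11 clock genes passed, with 2 at an unadjusted p under 0.05. The part of the clock difference in the leaf values of the members was not tested. Of 11 regulators GLK1 (log2 -1.0), GLK2 (-1.12) and HY5 (-1.07) were lower under the label *pi4kß1ß2*, and the sigma factor SIG1 (0.64) was higher. Of 22 chlorophyll synthesis genes 9 were higher and 1, PORB (-0.74, adjusted p = 0.0218 by edgeR), was lower, as it was in roots. Of 15 Calvin cycle genes 6 were higher and 0 lower. Without the 2 libraries, an alternative chosen for these lists after the data were seen, 1 regulator was higher and 7 were lower, 11 chlorophyll synthesis genes were higher and 3 lower, and 7 Calvin cycle genes were higher and 1 lower.

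**Figure D4:**
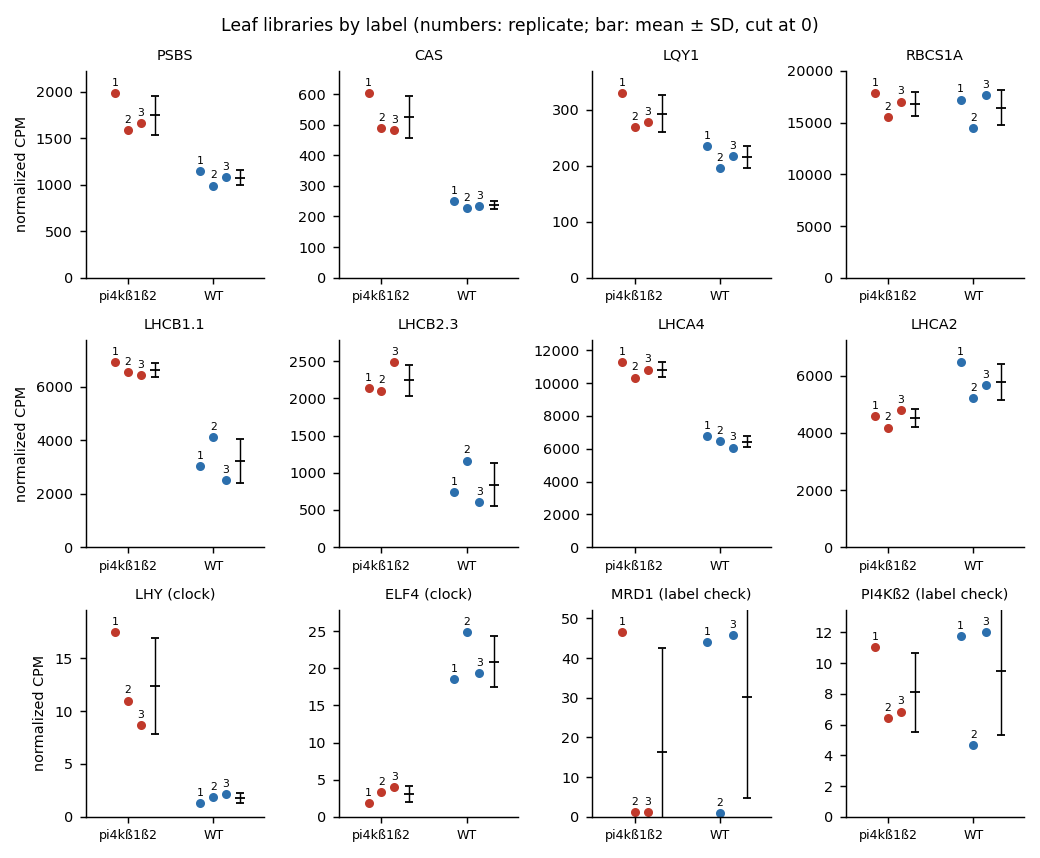
Normalized CPM (linear axes from 0) in the leaf libraries labelled *pi4kß1ß2* (red) and WT (blue), with replicate numbers and the mean ± SD, cut at 0, for 8 members, 2 clock genes and the label checks MRD1 and PI4Kß2. The members other than RBCS1A and both clock genes separate by label, while MRD1 and PI4Kß2 in the library labelled *pi4kß1ß2* leaf 1 and the library labelled WT leaf 2 do not.

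The difference between the contrast by label in leaves and the genotype contrast in roots was tested itself, as an interaction in all 12 libraries. It passed for 28 of the 51 members, all more positive in leaves than in roots, where 12.4% of the 20169 genes tested did so. The median difference over the members was 0.95 on the log2 scale and 0.02 over all genes. CAS differed by 2.38 ± 0.19 (adjusted p = 0.000176 by edgeR), LQY1 by 2.12 ± 0.28 and PSBS by 1.83 ± 0.21. The root side of these 3 was known beforehand, and 25 of the other 48 members passed. Among these, all 3 electron carriers and 7 of 9 photosystem II subunits passed, against 6 of 15 LHCB genes, 4 of 6 LHCA genes, 3 of 10 photosystem I subunits and 2 of 5 Rubisco and activase genes. Of the electron carriers, PETE1 was below the minimum level in roots and entered this fit through its leaf libraries. Only CAS, LHCA4, PSBO2 and PSBS were called both lower in *pi4kß1ß2* roots and higher in leaves labelled *pi4kß1ß2*. Since the interaction contains the root contrast, its calls and the root calls are not independent. LHCB2.3 had a difference of 0.04 ± 0.69, so neither equal nor unequal change can be read from it. Without both leaf libraries that went against their labels 20 of 50 members passed, all more positive in leaves, where 20.2% of the 19582 genes tested did so, and the differences were 2.24 for CAS, 1.97 for LQY1, 1.67 for PSBS and 0.39 for LHCB2.3. None of the 5 Rubisco and activase genes was among the 20. Leaving out 1 library at a time, 20 to 33 passed.

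**Figure D5:**
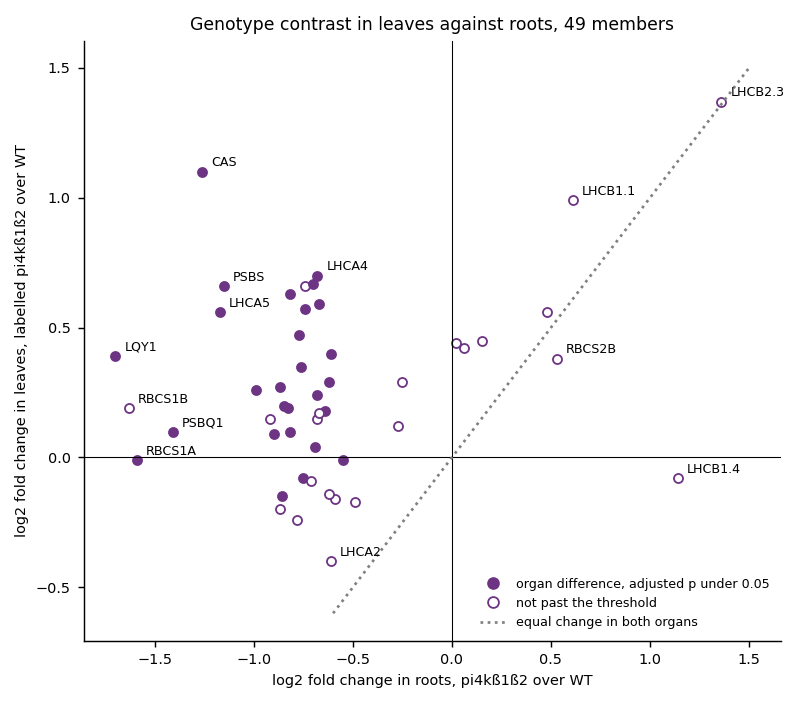
Log2 fold change in leaves labelled *pi4kß1ß2* over WT (vertical axis) against that in roots (horizontal axis) for the 49 members tested in both organs. Filled points passed the test of the difference between organs at an adjusted p of 0.05, and the dotted line marks equal change. Filled points lie left of 0 in roots, with CAS (-1.26 in roots, 1.1 in leaves) farthest from the dotted line, and LHCB2.3 lies on it. PETE1, which also passed, was not tested in roots alone and is not drawn.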

How the data were processed

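The authors' deposited files held whole-number read counts per gene, 1 file per library, made with STAR (2.7.3a in the study's methods) on TAIR10 from single 75-base reads of stranded, polyadenylated RNA, after trimming, removal of ribosomal reads and removal of reads with several hits. Those methods describe the root libraries; for leaves only STAR is stated. Separate columns gave both strands and each strand, and the column of the kit's strand was used. All 12 libraries were grouped by title. One leaf library labelled WT (replicate 3) carries dates where the others carry a developmental stage. The series' design calls the replicates biological, and the sources used here do not say how leaf tissue was pooled, so p-values measure the spread between these libraries.

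Genes with 1 CPM or more in at least 3 of 6 (genotype) or 6 of 12 (organ, interaction) libraries were tested with edgeR 4.0.16 (R 4.3.3), TMM scaling, robust quasi-likelihood fits and Benjamini-Hochberg adjustment over all genes tested. Alternatives were DESeq2 1.42.0, the likelihood ratio test, other scaling, filter and strand settings, a replicate block, omitted libraries and omitted copies. CPM values use 1 TMM scale for the 12 libraries, and SDs are over 3 libraries. Tests were checked on simulated data. Replicate numbers paired the leaf libraries (correlations of deviations 0.36, 0.66 and 0.17) but not the roots (-0.04, 0.32 and 0.61). No replicate pair agreed within sampling noise.

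Sequences and coordinates are from RefSeq TAIR10.1, whose nuclear identifiers match the counted genes; all 51 members matched. The members and lists were chosen with earlier results of these data known. Values in every library were given for PSBS, RBCS1A, LQY1 and CAS, for the lowest and highest root log2 fold change of each function, for the 3 largest and 3 smallest leaf over root folds and for members not tested; other lists name the 2 genes called with the largest change in roots. Proteins were not used here.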

Additional observations from a re-analysis of the deposited data

Results flagged for a closer look

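The contrast by genotype label differed between organs for 28 members by the interaction test (leaf contrast minus root contrast, log2, edgeR). The differences were 2.38 for CAS, 2.12 for LQY1 and 1.83 for PSBS. Among antenna genes they were 1.47 for LHCB3, 0.69 for LHCB4.1, 1.03 for LHCB4.3, 1.16 for LHCB5, 1.26 for LHCB6 and 0.56 for LHCB7, and 1.33 for LHCA1, 0.93 for LHCA3, 1.41 for LHCA4 and 1.75 for LHCA5. Among photosystem II subunits they were 0.73 for PSBO1, 1.39 for PSBO2, 1.02 for PSBP1, 1.53 for PSBQ1, 1.07 for PSBR, 0.75 for PSBX and 1.04 for PSBY. They were 0.85 for PSAD1, 0.95 for PSAK and 1.13 for PSAN among photosystem I subunits, 0.95 for PETC, 1.33 for PETE1 and 1.27 for PETE2 among electron carriers, and 1.6 for RBCS1A and 1.29 for RCA. Their cause was not tested, and the leaf side rests on libraries of which 2 go against their labels.

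Reads on the strand opposite to the gene were not used in any comparison. In roots they made up over 10% of the stranded counts of 5 members: LHCB2.3 (31.4%), LQY1 (27.1%), LHCA5 (20.4%), LHCB6 (16.8%) and CAS (10.5%), as sums over the 6 root libraries. In leaves the same 5 members had 0.184%, 0.315%, 0.0668%, 0.0933% and 0.174%. As raw sums, not scaled for depth, such reads were close in both organs for LHCB2.3 (547 in leaves, 498 in roots) and LQY1 (157 and 154). They were fewer in leaves for LHCA5 (23 in leaves, 136 in roots), LHCB6 (943 and 1669) and CAS (128 and 176). The sense counts of LHCB2.3 were 296454 in leaves and 1089 in roots. What these reads come from was not tested.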

How the results depend on the processing

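The count of members lower in *pi4kß1ß2* roots was 18 and became 29 with the likelihood ratio test and 35 with the replicate block; leaving out 1 library gave 8 to 23, and the other settings gave 14 to 27. Members higher in *pi4kß1ß2* roots stayed at 0 in every setting run. Under the block, replicate numbers that did not pair the root libraries entered as a term, and only 1 of the 3 *pi4kß1ß2* root libraries correlated best with the WT root library of its own number. In leaves the 14 members higher under the label *pi4kß1ß2* became 24 with DESeq2 and 7 in the fit of all 12 libraries, and 0 to 15 with 1 library left out. The count of members lower there, 0, became 1 with DESeq2, with the likelihood ratio test, with library size alone and with the replicate block, 2 without both libraries that went against their labels, and 0 to 1 with 1 library left out. The cause of these shifts was not tested. All 51 members were called higher in leaves than in roots in the other settings, with these exceptions. With counts of both strands 50 were called, as LHCB1.5 was then not tested. Without any 1 leaf library, or without both that went against their labels, 50 were called, as LHCA6 was not tested. All 40 that remained were called once the LHCB1 and LHCB2 genes, RBCS1B, RBCS2B and RBCS3B were left out. This set is not that of the genes sharing windows, since it holds LHCB2.3, which shares none, and not LHCA2. With library size alone, the split of higher and lower calls over all genes became 3122 and 2583 in roots (2233 and 3000 with TMM), 4978 and 13101 for leaf over root (8484 and 8538) and 1848 and 2658 for the interaction (2502 and 2144), and the median of all genes for leaf over root moved to -0.52. The 28 interaction calls ranged from 20 to 34. Over the members tested in both fits and all alternatives, calls were lost 48 times and gained 61 times in roots, lost 70 and gained 39 times in leaves and lost 60 and gained 21 times in the interaction. No call came with the other sign. At levels near 1 CPM (LQY1, LHCA5, LHCB7), depth limits the precision; 0 counts of LHCA6 in WT root 3 still allow 3 counts.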

Other observations

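Plastid-encoded partners of the members, chosen after the other results were seen, were followed in the same libraries. Chloroplast transcripts are poorly captured by selection for polyadenylated RNA, so these values describe that fraction only. rbcL, the large subunit of Rubisco, had 234, 198 and 158 CPM in leaves labelled *pi4kß1ß2* and 249, 199 and 107 CPM in leaves labelled WT, against 1.07, 1.5 and 1.11 CPM in *pi4kß1ß2* roots and 1.73, 1.38 and 1.4 CPM in WT roots. It passed neither genotype test (log2 -0.30 in roots, adjusted p = 0.312, and 0.04 in leaves, adjusted p = 0.947, by edgeR). psaB, a core protein of photosystem I, had 0.741, 0.738 and 0.857 CPM in *pi4kß1ß2* roots against 2.67, 1.15 and 1.48 CPM in WT roots (log2 -1.18, adjusted p = 0.0354 by edgeR), and was the only plastid gene of the 5 tested there that passed. None of 8 passed in leaves, where their log2 fold changes were -0.17 to 0.13, nor without the 2 leaf libraries that went against their labels, where they were -0.34 to 0.03.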
